A study of Mus musculus with 24 samples.

Results

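The genes described here are the cytoplasmic ribosomal protein genes of the mouse, the genes for the protein subunits of the ribosome that works in the cytosol. They were chosen by symbol: names made of Rpl or Rps and a number with an optional a, x, y or l and a further number, together with Rplp0 to Rplp2 and Rpsa. Rps6k kinase genes and names with the suffix -ps were not taken. Of 89 matching symbols, Rplp1 was left out because a piRNA cluster of the study carries its name. This gave 88 members of 55364 genes in the round spermatid tables and 55401 in the CB tables, 52 with large subunit names and 36 with small subunit names. RefSeq annotates 5 of the 88 (Rps3a2, Rps3a3, Rps4l, Rps12l1 and Rpl6l) as pseudogenes, and the other 83 as protein coding.

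A ribosome holds one copy of most of these proteins, so cells usually keep the mRNAs of the set in step. Many of the mRNAs begin with a C followed by a run of C and T, the terminal oligopyrimidine tract, through which their translation is controlled as a group. The mRNAs are short and abundant and have been copied back into the genome many times as processed pseudogenes. A few of the copies are working genes of the male germ line, which matters in round spermatids, the haploid cells after meiosis, because the X chromosome carries some of the parent genes and is largely silenced during meiosis.

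The study profiled testis germ cells of mice in which Ddx4, which encodes an RNA helicase of germ granules, carries a knock-in. Round spermatid RNA came from WT, DDX4 heterozygous knock-in and DDX4 homozygous knock-in animals, with 2 libraries in each group. CB RNA, an abbreviation that the labels do not spell out, came from heterozygous and homozygous knock-in, with 3 libraries in each group and germ cells as the labelled cell type. No wild-type CB library is among the samples. The labels name neither the change knocked in nor strain or age, describe the spermatids as an enriched fraction, and do not say that libraries of a group came from separate animals, so p-values measure the spread between these libraries, which may be technical. Levels below are TMM-scaled CPM (counts scaled to library size), not corrected for length, or deposited TPM, which is corrected for length and is the scale used between genes. A call is an adjusted p under 0.05 in edgeR's quasi-likelihood test, with Benjamini-Hochberg adjustment over all genes tested.

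Total counts ran from 15312153 to 24886664 in round spermatid libraries and from 14205962 to 16474872 in CB libraries. Ddx4 itself was at 443 and 521 CPM in the wild-type spermatid libraries, 406 and 403 in the heterozygous and 121 and 130 in the homozygous ones, and at 244 to 365 CPM in CB RNA with the genotypes overlapping. The 12 round spermatid markers summed to 11000 and 21700 CPM in the 2 wild-type libraries, 10300 to 11000 CPM in the other spermatid libraries and 1150 to 1960 CPM in CB RNA. Wild-type library 1 stood apart from the other 5 spermatid libraries: genes shorter than 1000 bases took 19.3% of its counts and 11.3% to 12.7% of theirs. In bulk RNA, fewer cells of a type and less RNA per cell cannot be told apart.

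The ribosomal protein genes are short, with a median length of 675 bases in the spermatid tables against 1980 bases over all genes tested. Members took 1.97% of the counts of wild-type library 1 and 1.02% of wild-type library 2. The heterozygous libraries had 1.00% and 1.07%, and the homozygous ones 1.24% and 1.15%. The 5 other libraries thus lay within 1.00% to 1.24%, with both homozygous libraries at the top. The summed TPM gave the same picture, with 52222 in wild-type library 1 and 34009, 34726, 36989, 39482 and 37442 in the others, in the order wild-type 2, heterozygous 1 and 2, homozygous 1 and 2. In CB RNA the members took only 0.149% to 0.164% of counts, and 6157 to 6995 of summed TPM, with the genotypes overlapping on both scales.

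All 84 members with more than 60 counts over the 6 spermatid libraries were higher in wild-type library 1 than in wild-type library 2, by a median of 0.96 on the log2 scale of library shares. The gap was 2.42 for the 16 members under 500 bases and 0.53 for the 17 of 900 bases or more. Across members its Spearman correlation with gene length was -0.72, a description over genes that share the same 2 libraries. The plot of member levels by library shows the same pattern, with the shortest members highest in wild-type library 1.

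**Figure D1:**
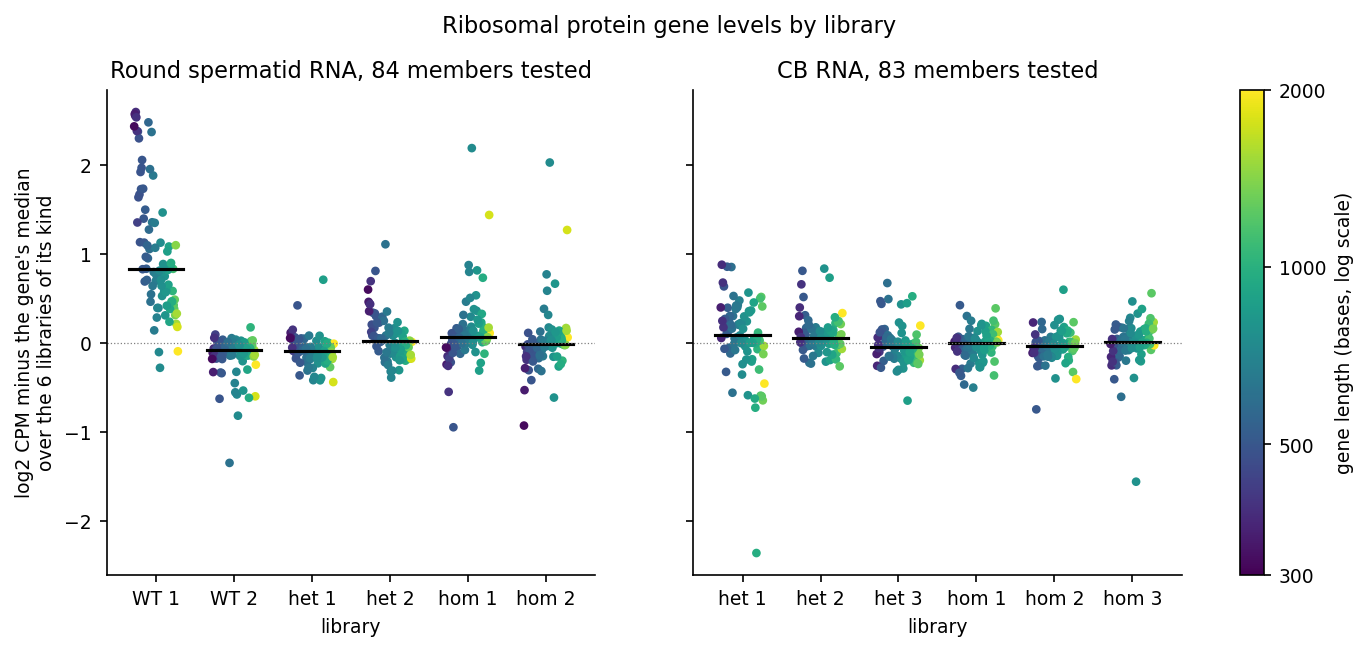
Each point is one ribosomal protein gene in one library, as log2 CPM minus the gene's median over the 6 libraries of its kind, coloured by gene length (log scale) and ordered from short to long within a library; black bars are medians. In wild-type spermatid library 1 nearly all of the 84 members lie above 0 and the short ones lie highest, while the other libraries centre near 0.

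Within round spermatids the members spanned a wide range of levels per length. The median member had 320 TPM, the middle 50% (177 to 606) lay well above the median of 10.1 TPM over all genes with at least 1 TPM, and 78 of 88 members had over 10 TPM. Large and small subunit names were alike, with medians of 313 and 339 TPM. The highest mean levels were those of Rps14 (2300 TPM), Rpl26 (2040), Rps24 (1380), Rps7 (1340) and Rpl13 (1190). In CB RNA the median was 62.8 TPM and the highest were Rpl41 (315 TPM), Rps29 (200), Rpl18 (196), Rpl13 (185) and Rps27 (171). The order of the 88 members was similar but not the same in both kinds of RNA (Spearman correlation 0.62, a description; kit and RNA input differ with the kind of library). Rps29, which encodes a small subunit protein and is among the shortest members, ranked 74 of 88 in spermatid RNA and 2 in CB RNA.

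Rplp0 and Rplp2, genes of the acidic stalk, which recruits elongation factors, were well expressed. So were Rpl5 and Rpl11, whose products bind 5S ribosomal RNA. Rplp1, also a stalk gene, is not a member and its level is not given. Rplp0 had 863 and 866 TPM in wild-type, 825 and 829 in heterozygous and 885 and 858 in homozygous spermatid libraries. This was one of the steadiest members per length, with wild-type library 1 inside the range of the rest. Rplp2 had 1020 and 785, 718 and 731, and 695 and 749 TPM in the same order. Rpl5 lay between 108 and 124 TPM and Rpl11 between 474 and 637 TPM over the 6 libraries. Rpsa, whose product is also known as the laminin receptor precursor, had 180 and 162 TPM in wild-type, 161 and 161 in heterozygous and 201 and 202 in homozygous libraries. The homozygous pair lay above the other 4 in TPM but not in CPM. There wild-type library 1 (233) exceeded both homozygous libraries (209 and 204), and the fitted log2 change over wild type was 0.04.

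Members on the X chromosome were among the lowest. Rpl10 (24.6 to 49.9 TPM), Rpl36a (2.15 to 11.4), Rps4x (3.02 to 7.78) and Rpl39 (0.49 to 4.77) ranked 78, 80, 81 and 84 of the 88 in spermatid RNA. In CB RNA they ranked 79, 80, 83 and 85. Their autosomal relatives were high. Rpl10l, an intronless copy of Rpl10 needed for male meiosis in mice, had 623 ± 3.26 TPM in wild-type spermatids (SD, n = 2), 562 ± 8.58 in heterozygous and 500 ± 13.3 in homozygous ones. Rpl10 ran the other way, with 25.1 ± 0.75, 37.8 ± 1.34 and 47.2 ± 3.81 TPM (SD, n = 2 each). In CPM the wild-type libraries were further apart, at 494 and 372 for Rpl10l and 12.3 and 8.84 for Rpl10. The ratio of Rpl10l to Rpl10 was 24.2 and 25.5 in the wild-type libraries, 14.7 and 15.1 in the heterozygous and 10.2 and 11 in the homozygous libraries, so that the 3 genotypes did not overlap. In the test of counts neither gene passed: Rpl10 was 0.56 higher on the log2 scale in homozygous than wild-type spermatids (SE 0.205, adjusted p = 0.186) and Rpl10l 0.55 lower, a log2 change of -0.55 (SE 0.152, adjusted p = 0.113). Both passed in that comparison without wild-type library 1, with log2 changes of 0.81 and -0.34. In CB RNA the ratio was 5.17 to 8.13 in heterozygous and 7.66 to 8.96 in homozygous libraries, and the groups overlapped.

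Rpl39l, the autosomal relative of Rpl39 that male germ cells build into their ribosomes, had 405 ± 15.3 TPM in homozygous and 416 ± 27.4 TPM in heterozygous spermatids (SD, n = 2 each), against 1.36 ± 0.417 and 1.99 ± 1.27 TPM for Rpl39. The wild-type libraries gave 589 ± 298 TPM for Rpl39l (SD, n = 2), a spread that wild-type library 1 sets. Rps4l, listed by RefSeq as a transcribed pseudogene, had 465 ± 1.58, 444 ± 6.51 and 543 ± 33.5 TPM in wild-type, heterozygous and homozygous spermatids (SD, n = 2 each), against 4.75 to 5.91 TPM group means for the X-linked Rps4x. In CPM the wild-type (292 and 210) and homozygous (254 and 228) libraries of Rps4l overlapped, with a fitted log2 change of -0.06. Rpl22l1 exceeded Rpl22 in every spermatid library, by ratios of 2.67 to 3.75, while in CB RNA the ratio ran from 0.356 to 1.65. In spermatids Rps27l stayed below Rps27 (ratios 0.156 to 0.223) and Rpl7l1 far below Rpl7 (0.0157 to 0.0209). In CB RNA the ratio of Rpl7l1 to Rpl7 was higher, at 0.235 to 0.362 in heterozygous and 0.196 to 0.252 in homozygous libraries. That of Rps27l to Rps27 was lower there, at 0.0699 to 0.146 and 0.0632 to 0.0944. Rpl3l, the muscle relative of Rpl3, was at most 0.55 TPM as a group mean. The plot of paralog pairs shows that the 3 testis pairs keep their order in all 12 libraries and that only the Rpl22 pair crosses in CB RNA.

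**Figure D2:**
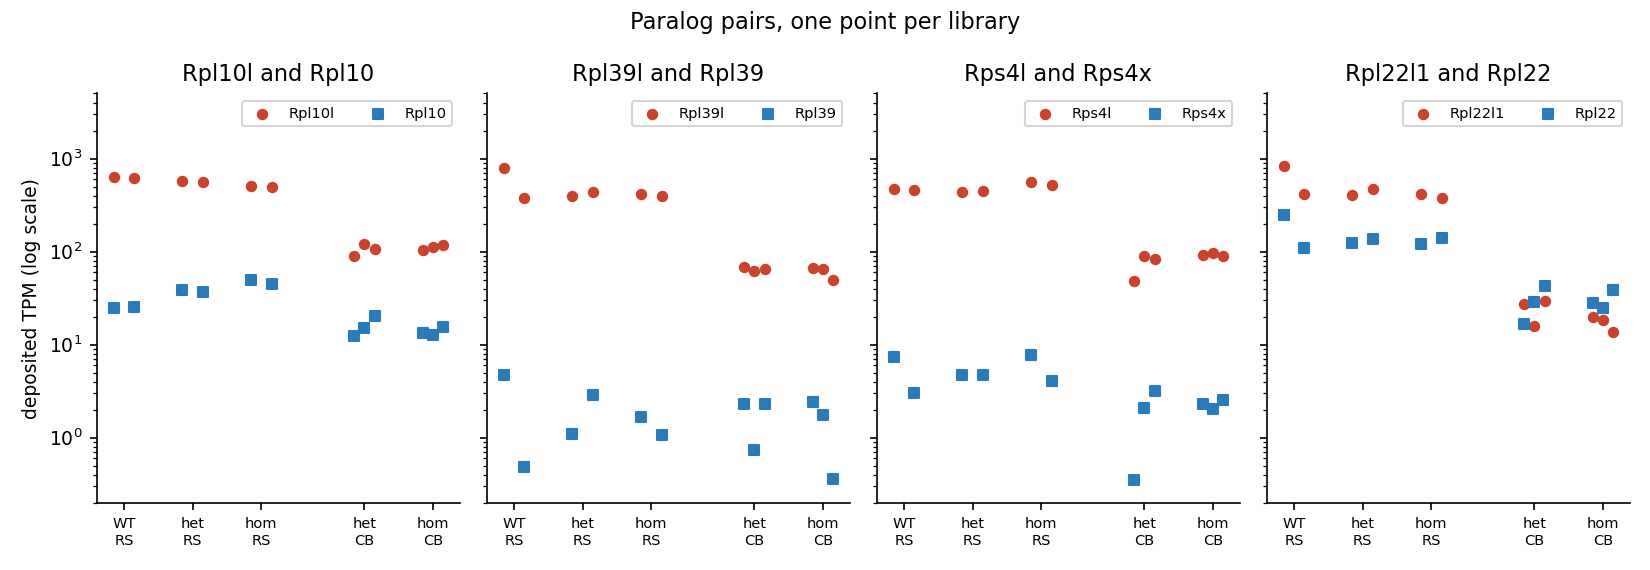
Deposited TPM (log axis) of 4 paralog pairs in each library; red circles are the paralog, blue squares its partner, and groups are WT, het and hom in round spermatid (RS) RNA and het and hom in CB RNA. From wild-type to homozygous spermatids the ratio of Rpl10l to Rpl10 is 24.2 to 25.5, 14.7 to 15.1 and 10.2 to 11.

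In homozygous against wild-type round spermatids, 84 members were tested and 2 were called, Rpl10a and Rps3, both higher. That is 2.38% of members, against a background of 2.86% of the 17809 genes tested being called (2.39% higher and 0.472% lower). None was called lower. The share of members called was thus near that of all genes.

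Rpl10a encodes the large subunit protein uL1, which forms the flexible stalk at the exit side of the ribosome. It had 28.9 and 19.9 CPM in the wild-type libraries, 32.9 and 37.5 in the heterozygous and 160 and 143 in the homozygous libraries. All 3 genotypes were separate, with the homozygous pair far above the rest. The log2 change from wild type to homozygous was 2.63 (SE 0.215, a 6.20-fold rise, adjusted p = 0.0089), and that from heterozygous to homozygous 2.10 (SE 0.211, 4.30-fold, adjusted p = 0.0217). Rps3 encodes the small subunit protein uS3 at the mRNA entry channel, which also has roles in DNA repair. It had 64.4 and 37.5 CPM in wild-type, 41.9 and 50.3 in heterozygous and 154 and 137 in homozygous libraries. Wild-type and heterozygous libraries overlapped and both homozygous libraries lay above all 4. The rise was 1.51 over wild type (SE 0.266, 2.86-fold, adjusted p = 0.0447) and 1.66 over heterozygous (SE 0.268, 3.15-fold, adjusted p = 0.0447).

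Rpl10a lies on chromosome 17 (GRCm38.p6, positions 28328471 to 28331033, plus strand) and Rps3 on chromosome 7 (99477896 to 99483709, minus strand). Both calls had little room. Leaving out either heterozygous or either homozygous library ended them, although the log2 changes stayed at 2.55 to 2.72 for Rpl10a and 1.44 to 1.60 for Rps3 over wild type. Without wild-type library 1 the changes were 2.92 and 1.95, and without wild-type library 2 they were 2.39 and 1.19. Each of these fits leaves 1 wild-type library.

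The start sites of Rpl10a and Rps3 are shown because the terminal oligopyrimidine tract is the sequence feature this family is known for. Each line gives 30 bases before and 30 bases from the RefSeq annotated start (GRCm38.p6), 5′ to 3′ on the transcribed strand, with the longest run of C or T that touches the interval from 10 bases before to 20 bases after the start in capitals, and the first of them where 2 are equally long, as at Rpl10a start 1. Rpl10a has 2 annotated starts, 94 bases apart. Rpl9 and Rpl15, which rank next over wild type, did not pass the test and are shown for comparison.
Rpl10a start 1 (chr17:28328441-28328500, plus strand): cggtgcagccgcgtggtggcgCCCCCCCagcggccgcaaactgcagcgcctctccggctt
Rpl10a start 2 (chr17:28328535-28328594, plus strand): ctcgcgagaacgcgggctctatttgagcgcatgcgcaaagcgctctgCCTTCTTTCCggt
Rps3 (chr7:99483680-99483739, minus strand): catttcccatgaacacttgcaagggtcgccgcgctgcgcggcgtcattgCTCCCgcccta
Rpl9 (chr5:65391402-65391461, minus strand): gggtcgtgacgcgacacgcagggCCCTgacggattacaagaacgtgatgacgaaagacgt
Rpl15 (chr14:18270957-18271016, minus strand): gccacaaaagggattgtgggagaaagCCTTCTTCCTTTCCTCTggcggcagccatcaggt

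The runs were 7 and 10 bases at the 2 starts of Rpl10a, 17 at Rpl15, 5 at Rps3 and 4 at Rpl9, so the 4 genes did not share a long run in this window. Among all 76 windows of the 64 members that the table holds, 52.6% had a run of at least 7 bases of C or T on the transcribed strand, against 24.6% of the 32851 windows of all genes, with median runs of 7 and 5 bases. A run is a match of letters near an annotated start and not a measured tract.

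Isoform estimates assigned the rises to certain transcripts, which differed between the kinds of RNA. In spermatid RNA, 88.7% to 96.1% of Rpl10a TPM was assigned to ENSMUST00000233427, a transcript of 729 bases, which had 53.7 and 49.0 TPM in wild-type, 86.4 and 90.9 in heterozygous and 435 and 388 in homozygous libraries. In CB RNA this transcript was listed at 0 in all 6 libraries. There ENSMUST00000042334 (830 bases) had the largest group means, 20.3 ± 8.32 TPM in heterozygous and 46.2 ± 7.51 in homozygous libraries (SD, n = 3 each). Rps3 showed a similar division. ENSMUST00000032998 (1908 bases) held 79.5% to 91.3% of its TPM in spermatid RNA, with 29.9 ± 6.10, 32.1 ± 2.50 and 102 ± 3.92 TPM in wild-type, heterozygous and homozygous spermatids (SD, n = 2 each). ENSMUST00000208532 (489 bases) was listed at 0 in all spermatid libraries and at 7.96 to 45.5 TPM in CB libraries. Isoform values are estimates and were not tested. Spermatid and CB RNA were deposited with different numbers of genes, and whether the same annotation served both was not tested.

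Processed copies could take reads from a member. The tables hold 298 annotated -ps copies of 60 members, up to 24 for 1 member. In spermatid RNA the copies held only 0.302% to 0.424% of the counts of members and copies together, and Rpl10a was the single member with more than 5% of its family's counts on copies (7.61%). Rpl10a-ps1 had 1.69 and 0.864 CPM in wild-type, 2.89 and 3.54 in heterozygous and 13.2 and 12.9 in homozygous libraries, and was the single copy called among the 23 tested (log2 change 3.37 over wild type, SE 0.321, adjusted p = 0.0111, and 2.02 over heterozygous, SE 0.295, adjusted p = 0.0367). It rose with its parent gene, and expected counts of Rpl10a were not whole numbers in any of the 12 libraries, which is how reads shared between genes appear. With each member summed with its copies the change of Rpl10a over wild type was 2.68 and the same 2 members were called. Rps3 has no annotated copy, and its spermatid counts were whole numbers. In CB RNA its expected counts were not whole numbers in any of the 6 libraries. The same held for Rpl41, which also has no annotated copy.

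Rpl9 and Rpl15 followed the same pattern below the threshold. Rpl9, a large subunit protein gene on chromosome 5, had 105 and 63.0 CPM in wild-type, 70.9 and 69.0 in heterozygous and 158 and 147 in homozygous libraries. Rpl15, on chromosome 14, had 143 and 79.6, 87.8 and 93.3, and 203 and 183 CPM. In both genes the homozygous pair lay above the other 4 libraries. The log2 differences from wild type were 0.86 (SE 0.239, adjusted p = 0.116) and 0.80 (SE 0.265, adjusted p = 0.159), and those from heterozygous 1.12 (SE 0.241, adjusted p = 0.0876) and 1.10 (SE 0.267, adjusted p = 0.118). Without wild-type library 1 both genes passed in both comparisons. Rps27a, which encodes a ubiquitin fusion protein and was singled out after its values were seen, was alike, with 105 and 54.4 CPM in wild-type, 59.8 and 61 in heterozygous and 139 and 120 in homozygous libraries. Its homozygous pair was again the highest, and its log2 differences of 0.70 and 1.10 from wild type and heterozygous did not pass.

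**Figure D3:**
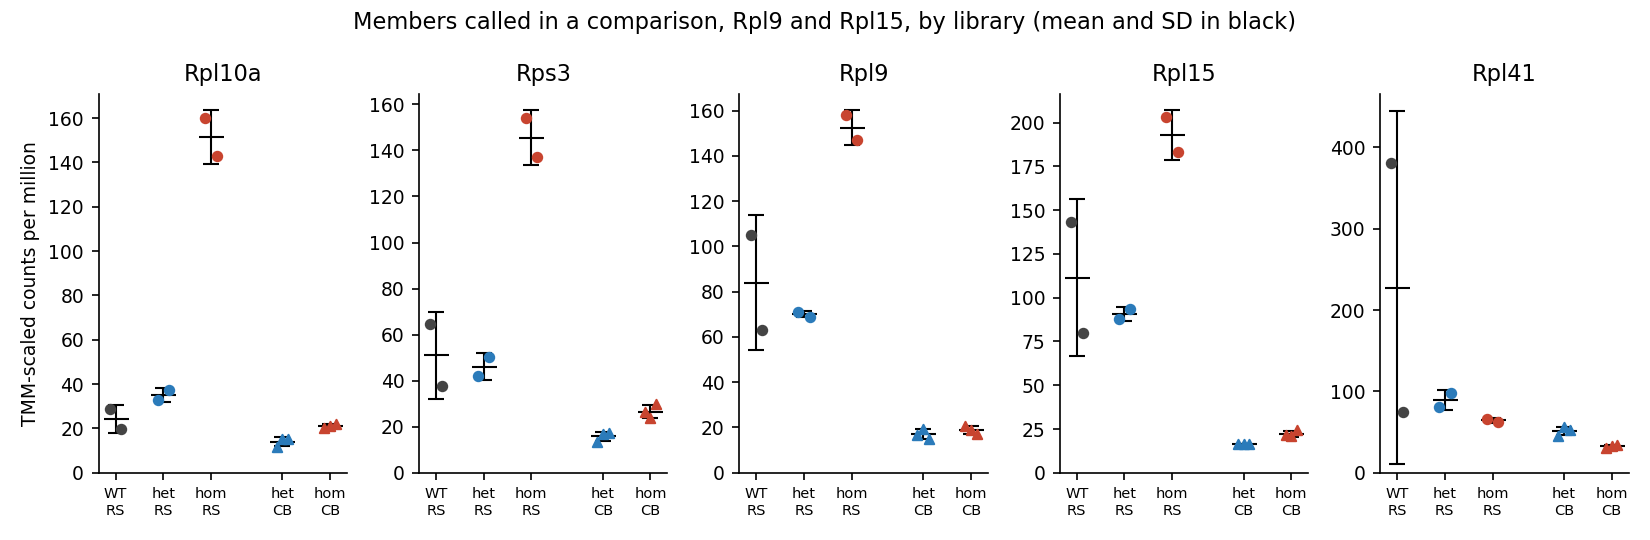
TMM-scaled CPM of the 3 members called in a genotype comparison (Rpl10a, Rps3, Rpl41) and of Rpl9 and Rpl15, by library: circles are round spermatid (RS) and triangles CB libraries, grey for WT, blue for het and red for hom, with mean and SD in black. Rpl10a, Rps3, Rpl9 and Rpl15 are highest in both hom spermatid libraries, and Rpl41 in the hom CB libraries (31.0 to 33.6) lies below all het CB libraries (45.6 to 55.9).

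With all libraries kept, the members as a set were not higher in homozygous than in wild-type spermatids. Their median log2 change over wild type was -0.44, against 0 for all 17809 genes. Of the 84 members, 15 (17.9%) lay above 0, against 50% of all genes. Both homozygous libraries exceeded both wild-type libraries in 8 members (9.52%, against 26.7% of all genes) and lay below both in 15 (17.9%, against 25% of all genes). The most negative values belonged to the shortest members. Rpl38, one of the smallest large subunit proteins, had 53.1 and 8.27 CPM in wild-type, 9.67 and 12.3 in heterozygous and 7.55 and 6.18 in homozygous libraries, with a log2 value of -2.15 (SE 0.783, adjusted p = 0.185). Rps28 and Rps29 had -2.06 and -1.97 (adjusted p = 0.208 and 0.194). Wild-type library 1 is the high value in all 3 genes.

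With wild-type library 1 left out, the median of the members was 0.11, against 0.01 for all genes, and Rpl38 had -0.27. In that fit 61 of 84 members lay above 0, so the direction of the set depended on that library. The fit leaves 1 wild-type library, which is assumed to vary like the other groups. It called 21 members higher and 2 lower, or 25% and 2.38% of members, where 13.3% and 13.1% of all genes were called. The 21 had a median length of 775 bases and included Rpl10a, Rps3, Rpl9, Rpl15, Rpl10, Rps7, Rpsa, Rpl7 and Rps4l. The 2 called lower were Rpl10l and Rpl35, the second named after its value was seen. Without wild-type library 2 instead, the median was -0.77, and 6 members were called higher and 70 lower, against 24.2% and 20.9% of all genes. Removing the trend of counts on gene length from each library, with all 6 kept, brought the median to -0.04 and called 10 members higher and 2 lower (11.9% and 2.38% of members, against 7.77% and 6.15% of all genes).

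In heterozygous against wild-type spermatids no member was called, and none of the 17809 genes (0%). At an unadjusted p under 0.05 there were 8 members, 1 higher and 7 lower, against 601 genes higher (3.37%) and 695 lower (3.9%). DESeq2 called 0 members and 5 genes (0.0281%). The median of the members was -0.53 (all genes -0.01) and 3 of 84 lay above 0, against 49.3% of all genes, with wild-type library 1 again the high value. The lowest were Rpl36 and Rps29, both with -1.55, and Rpl37a with -1.53. The highest were Rpl10a with 0.53 (SE 0.206, adjusted p = 0.519), Rpl10 with 0.33 and Rpl7l1 with 0.17. Without wild-type library 1 the median was 0.07 and Rpl10a alone was called, with a log2 rise of 0.82 (1.19% of members, against 0.386% of all genes called higher). Without wild-type library 2 the median was -0.89, with 1 member called higher and 79 lower, against 21.5% and 20.5% of all genes. Each comparison with wild type uses the same wild-type libraries, and each with homozygous the same homozygous ones, so these comparisons are not independent of each other.

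In homozygous against heterozygous spermatids, which involves no wild-type library in its fold changes, the median of the members was 0.09 (all genes 0) and 53 of 84 were above 0, against 49.9% of all genes. Rpl10a and Rps3 were called higher (2.38% of members, against 1.36% of all genes called higher and 1.73% called in either direction), and none lower (0.371% of all genes). Both homozygous libraries exceeded both heterozygous ones in 38 members (45.2%, against 32.6% of all genes) and lay below both in 20 (23.8%, against 32%). The lowest values were those of Rpl36a (-1.29), Rps21 (-0.80) and Rps28 (-0.77), none of which passed. Leaving out any 1 of the 4 compared libraries ended both calls.

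The spread used in this comparison came in part from the wild-type pair, which differed by far the most: chi-square over degrees of freedom was 95 for the wild-type pair, 2.47 for the heterozygous and 3.66 for the homozygous pair. Without wild-type library 1 the fold changes hardly moved but 43 of 84 members were called, 30 higher and 13 lower, or 35.7% and 15.5% of members, against 15.4% and 14.7% of all genes; without wild-type library 2 the count was also 43. The members called higher were longer, with a median of 801 bases (604 to 1770), than those called lower, with a median of 494 bases (316 to 1020). The higher ones included Rpl10a (2.11), Rps3 (1.66), Rpl9 (1.12), Rpl15 (1.09), Rps7 (0.37), Rpl7 (0.36), Rpsa (0.30), Rps4l (0.26), Rpl3 (0.21), Rpl11 (0.20) and Rpl18 (0.19). The lower ones included Rps21 (-0.80), Rps28 (-0.76), Rpl38 (-0.67), Rpl41 (-0.47), Rpl37a (-0.38), Rps27 (-0.38), Rpl36 (-0.34) and Rpl10l (-0.16). Rpl10a and Rps3 thus lay far from most of the family.

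With all libraries kept, fitted changes of members followed gene length in each comparison. The Spearman correlation of change with length across members was 0.70 for homozygous against wild type, 0.75 for heterozygous against wild type, 0.54 for homozygous against heterozygous and 0.44 in CB RNA; over all genes it was 0.33, 0.56, -0.11 and 0.17. These are descriptions across genes of the same libraries. Without wild-type library 1 the member correlations in the spermatid comparisons were 0.39, -0.36 and 0.54, in the same order. Over all genes they were -0.06, 0.08 and -0.12. The direction for heterozygous against wild type thus depended on that library. Other genes of the same length are given beside the members, with all libraries kept. For homozygous against wild type, members under 500 bases had a median of -1.73 (16 members) and other genes -1.13 (396 genes), and from 500 to 600 bases the medians were -0.61 (15 members) and -0.59 (415 genes). From 700 to 900 bases both were -0.25 (23 members and 1118 genes), and from 900 bases upward they were -0.10 and 0.05. For heterozygous against wild type, members and other genes had -1.21 and -0.94 under 500 bases and -0.30 and 0.05 from 900 bases upward. For homozygous against heterozygous they had 0.19 and 0.10 from 600 to 700 bases and 0.20 and 0.09 from 700 to 900 bases. In that comparison the members from 900 bases upward had a median of 0.21 (17 members), while other genes of that length had -0.01 (15100 genes). The plot of change against length shows Rpl10a and Rps3 far above genes of their own length.

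**Figure D4:**
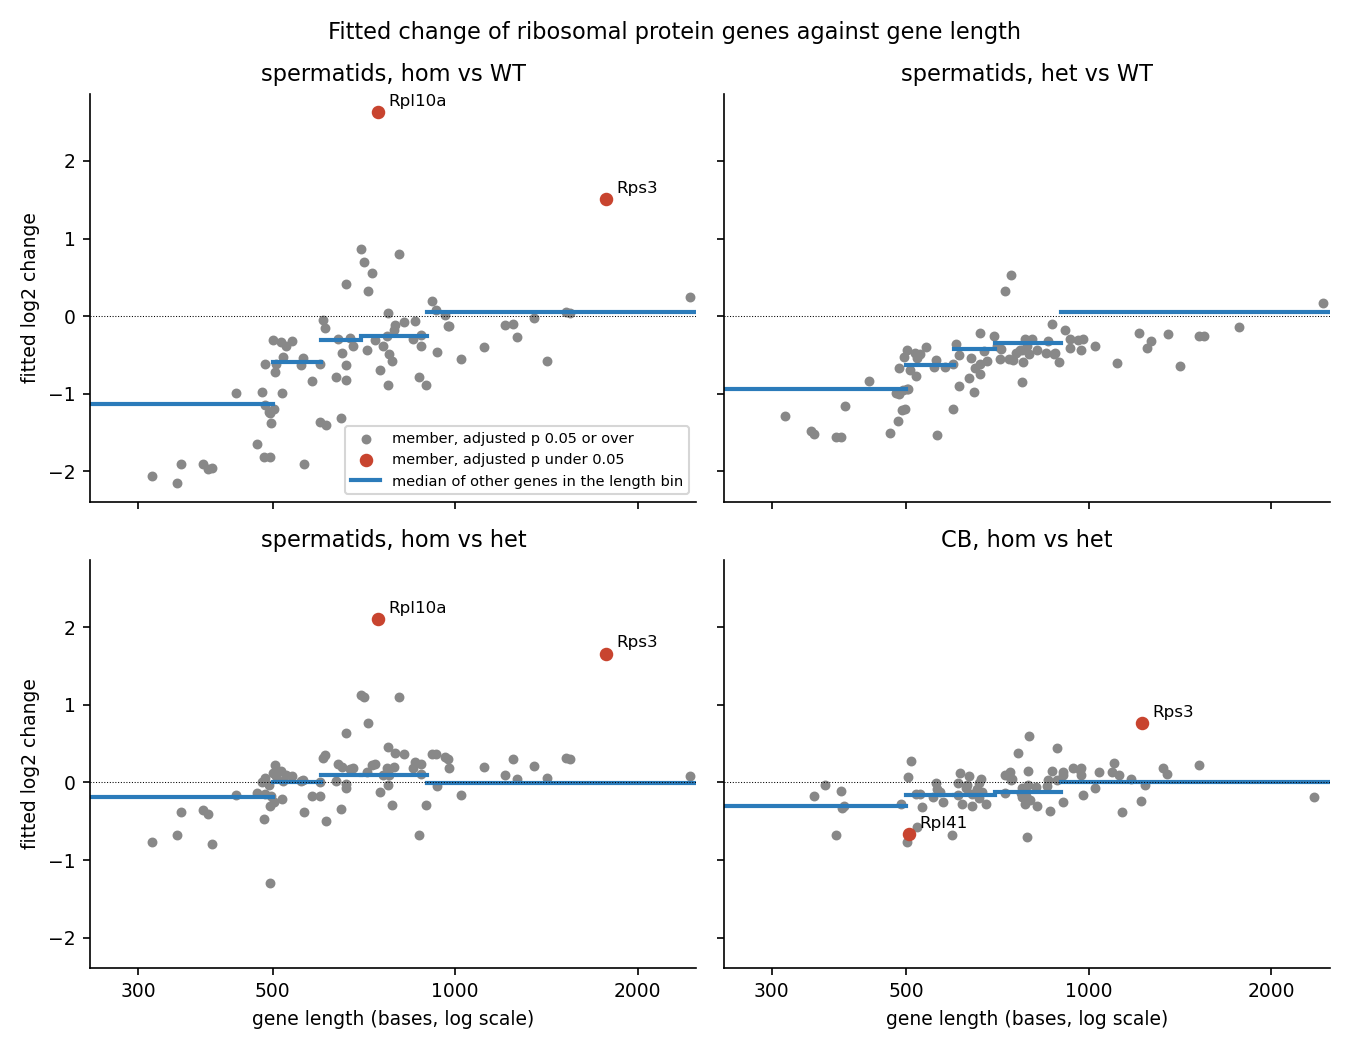
Fitted log2 change of each tested member (points) against gene length in bases (log axis), in 4 panels for the 4 genotype comparisons; red points have an adjusted p under 0.05, and blue lines are medians of all other genes in the length bin. With all libraries kept, the members slope upward with length in all panels. Rpl10a (2.63 and 2.10) and Rps3 (1.51 and 1.66) stand above the slope in both comparisons of homozygous spermatids. Without wild-type library 1 the correlation with length for heterozygous against wild type was -0.36.

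Marker sums of some other cell types moved with genotype beside the rises of Rpl10a and Rps3. The 10 immune markers summed to 20.3 to 23.2 CPM in wild-type, 31.4 to 32.3 in heterozygous and 42.2 to 43.3 in homozygous spermatid libraries, with 2 of the 9 tested called higher in homozygous against wild type. The 10 peritubular and vascular markers ran from 28.5 to 35 through 42.4 to 43.3 to 57.5 to 61.1 CPM (2 of 9 called higher), and the 10 spermatogonia markers from 107 to 110 through 122 to 125 to 144 to 153 CPM (1 of 9 called higher). The 8 Leydig markers ran from 6.70 to 9.43 through 9.17 to 10.9 to 15.7 to 17.2 CPM (1 of 5 called higher, with Lhcgr at 0 in heterozygous libraries). Sums can follow single genes: over wild type, 2 of 5 Leydig markers lay above 0 (median -0.01), and the 1 called was Insl3 (1.55). Of spermatogonia markers, 7 of 9 lay above 0 over wild type (median 0.15) and 4 of 9 over heterozygous (median -0.21). Immune markers had 9 of 9 above 0 over wild type, and peritubular and vascular markers 6 of 9. The 12 Sertoli markers were at 55.9 to 59.5, 54.0 to 55.1 and 31.4 to 31.9 CPM, with 2 of 8 called lower and Fshr at 0 in homozygous libraries. In CB RNA the immune sum was 7.74 to 14 CPM in heterozygous and 15.4 to 18.2 in homozygous libraries, with 1 of 8 called higher. Pachytene spermatocyte markers summed to 903 to 1000 CPM over the 6 spermatid libraries (1 of 10 called higher over wild type) and erythroid markers to 8.25 to 15.9 CPM. No other marker was at 0 in all libraries of a group. The part of these cells in the changes of ribosomal protein genes was not tested.

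In CB RNA, 83 members were tested in homozygous against heterozygous knock-in and 2 were called, 1 in each direction (2.41% of members, against 1.72% of 19335 genes, 1.16% higher and 0.559% lower). Rps3 had 13.3, 16.8 and 17.2 CPM in heterozygous and 26.4, 23.7 and 29.7 in homozygous libraries, without overlap, a log2 rise of 0.76 (SE 0.143, 1.69-fold, adjusted p = 0.0291). Rpl41, which encodes the smallest ribosomal protein and was the most abundant member per length in CB RNA, had 45.6, 55.9 and 53.0 CPM in heterozygous and 31.0, 32.6 and 33.6 in homozygous libraries. It fell by 0.67 on the log2 scale (SE 0.113, 1.59-fold lower, adjusted p = 0.0172). With the length trend removed its log2 change was -0.49 and the call was lost. Expected counts of Rps3 and Rpl41 were not whole numbers in any CB library. Beside these calls, the round spermatid markers summed to 1380 to 1960 CPM in heterozygous and 1150 to 1220 CPM in homozygous CB libraries, with 3 of 12 (Prm1, Spaca1 and Tssk6) called lower, and Leydig markers to 96.4 to 158 and 172 to 184 CPM with none called. Their part in the changes was not tested.

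Rpl10a had 11.7, 15.2 and 15.1 CPM in heterozygous and 20.4, 21.2 and 22.1 CPM in homozygous CB libraries. The groups did not overlap, and the log2 difference of 0.60 (SE 0.136, adjusted p = 0.0577) did not pass. It passed with the length trend removed, where the difference was 0.71, with DESeq2 and without a filter on low counts. Rpl15 was next, with 16.5, 16.4 and 16.6 against 21.4, 21.2 and 24.4 CPM and a difference of 0.44 (SE 0.117, adjusted p = 0.108). Homozygous libraries lay above all heterozygous ones in 5 members (6.02%, against 11.5% of all genes) and below in 8 (9.64%, against 9.78%). The lowest fitted values were those of Rps27l (-0.77), the pseudogene Rps3a2 (-0.70) and Rpl22l1 (-0.68), none of which passed. Rps27l had 1.93, 3.55 and 2.80 CPM in heterozygous and 2.12, 1.20 and 1.52 CPM in homozygous libraries, which overlapped.

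Over the set the median in CB RNA was -0.07, against 0 for all genes, and 31 of 83 members lay above 0, against 49.3% of all genes. Members with and without annotated copies had medians of -0.05 and -0.14. The copies held 1.77% to 2.11% of member and copy counts in CB libraries, and 16 members had over 5% of their family's counts on copies. Leaving out heterozygous CB library 1 gave 4 called members (Rpl10a, Rpl15 and Rps3 higher, Rpl41 lower; 4.82%, against 11% of all genes), and leaving out any other CB library gave none.

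Set side by side over the 83 members tested in both kinds of RNA, which share no library, the change from heterozygous to homozygous was above 0 in both for 26 members, below 0 in both for 25, above 0 in spermatids alone for 27 and in CB RNA alone for 5. The direction was thus the same in 61.4% of members and in 61.1% of the 16016 genes tested in both. The rank correlation across members was 0.54, and 0.37 across all genes, as a description. Rpl10a, Rps3 and Rpl15 were above 0.5 in spermatids and above 0.2 in CB RNA.

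**Figure D5:**
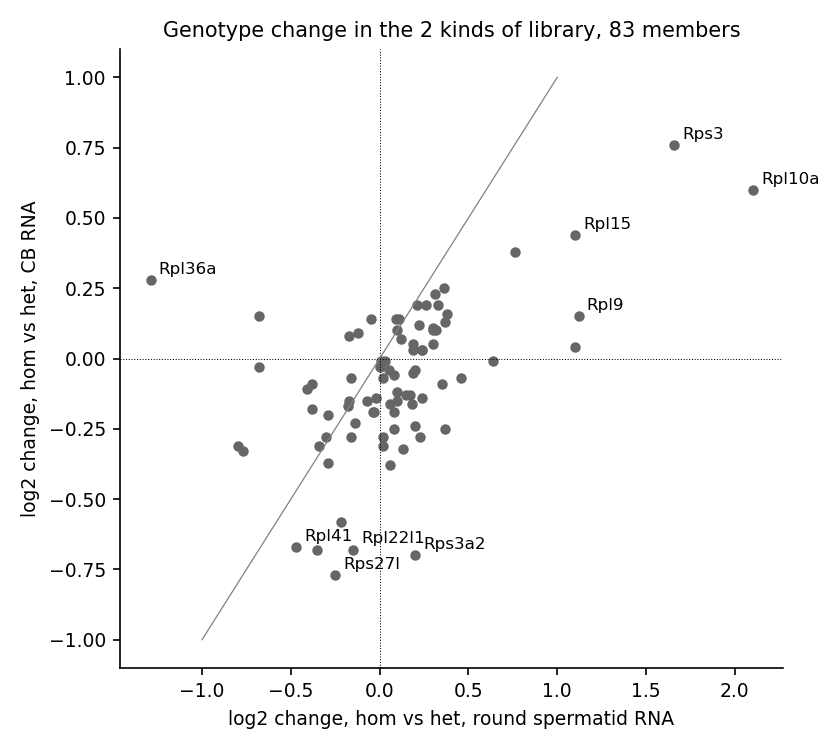
Fitted log2 change from het to hom in round spermatid RNA (horizontal) against CB RNA (vertical) for the 83 members tested in both; the grey line marks equal changes. Rpl10a (2.10 and 0.60) and Rps3 (1.66 and 0.76) lie right of the line, with a larger change in spermatids, and Rpl36a (-1.29 and 0.28) lies apart at low counts.

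The difference between the 2 changes was tested over all 12 libraries. One of 84 members was called, Rpl10a, whose change in CB RNA was lower than that in spermatids by a log2 value of -1.44 (SE 0.24, adjusted p = 0.0308); this is 1.19% of members, against 0.209% of the 22002 genes tested (0.0636% higher and 0.145% lower). Rps3 had -0.85 (adjusted p = 0.385) and Rpl9 -0.91 (adjusted p = 0.296), so that a difference between the kinds of RNA was not shown for them. Rpl10a lost the call when any 1 of the heterozygous or homozygous spermatid libraries, or any CB library other than heterozygous CB library 1, was left out, with values of -1.35 to -1.54. Without wild-type library 1, or without wild-type library 2, Rpl10a, Rps3, Rpl9, Rpl15 and Rps27a were all called lower (5.95% of members; without library 1, 0.805% of all genes were called). Cells, kit and RNA input differ with the kind of library and cannot be told apart here.

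Lists of other genes of the translation apparatus are read against the shares of all genes called higher, 2.39% over wild type and 1.36% over heterozygous spermatids. Of 4 tested ribosomal protein genes outside the symbol rule, Rack1, which codes for a scaffold protein on the small subunit, rose by 1.25 over wild type (adjusted p = 0.0244) and by 1.5 over heterozygous spermatids (adjusted p = 0.0243). Among 20 elongation factor and other oligopyrimidine-tract genes, Nap1l1, a histone chaperone gene, was called higher in both comparisons (1.09 and 0.90, adjusted p = 0.0222 and 0.0443). Of 30 ribosome biogenesis factors, Utp15, a part of the small subunit processome, was called higher over wild type (1.24, adjusted p = 0.0219), and of 78 mitochondrial ribosomal protein genes Mrps7 was (1.42, adjusted p = 0.0483). None of these lists had a call in heterozygous against wild type or in CB RNA. Over wild type, 1 of 4, 8 of 20, 22 of 30 and 26 of 78 lay above 0, against 50% of all genes. The list medians were -0.67, -0.07, 0.13 and -0.20 in the same order. Over heterozygous spermatids the medians were 0.01, 0.08, 0.14 and 0.19, with 2, 12, 21 and 61 genes above 0 (49.9% of all genes). The mitochondrial set had medians of -0.20, -0.37 and 0.19 in the 3 spermatid comparisons and -0.01 in CB RNA. Without wild-type library 1 they were 0.15 and -0.05 against wild type, so that the first changed sign, and 0.19 against heterozygous. In that fit 18 of the 78 were called higher and 2 lower over wild type, where 13.3% and 13.1% of all genes were called, and 23 higher and 2 lower over heterozygous, where 15.4% and 14.7% were. The elongation factor list had 6 higher and 5 lower of 20 over wild type and 9 higher and 4 lower over heterozygous. The biogenesis list had 5 higher and 1 lower of 30, and 8 higher and 0 lower.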

How the data were processed

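RNA of round spermatids (2 libraries for each of 3 genotypes) and CB RNA (3 for each of 2) was used. Per the labels' protocols, the first was made from 1 ug of total RNA with a NEBNext Ultra kit and the second from 25 ng with a strand-specific kit, without poly(A) selection or removal of ribosomal RNA. Per the file headers, the authors deposited for each Ensembl gene its expected counts, TPM and length in bases, and for each transcript its TPM and percent of the gene's TPM. The submitters' processing notes name Trim Galore and the mm10 build. No quantifier or aligner is named there, in the labels or in the headers. The authors' deposited counts of reads per piRNA cluster served only for cluster names. Gene identifiers carry versions in the CB tables only, and the tables hold different numbers of genes.

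Expected counts were rounded and fitted with edgeR 4.0.16 (R 4.3.3; TMM, filterByExpr, quasi-likelihood test, adjusted p threshold 0.05), the 6 spermatid libraries together, the 6 CB libraries together and all 12 for the difference of changes. DESeq2 1.42.0, RLE factors, no filter, a replicate block, a length-trend offset (lowess span 0.3), members summed with copies, fits of the compared libraries only and leaving out each library were tried. The script was tested on simulated data. Pairs of replicates differed by more than sampling noise, with chi-square over degrees of freedom of at least 2.47. The 4 members too low to test in spermatids were Rpl32l, Rpl3l, Rps12l1 and Rps3a3, and Rpl39 was also too low in CB RNA.

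Members and lists were chosen with earlier results of these data known. Members named are those called, the 3 highest and lowest changes in each comparison, the 5 highest TPM of each kind of RNA, the testis paralogs and partners, and Rplp0, Rplp1, Rplp2, Rpsa, Rpl5, Rpl11, Rpl10a and Rps3; from other lists, those called. Symbols, positions and start windows are RefSeq's (GRCm38.p6); 260 genes had no symbol, and 24 members had no start window.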

Additional observations from a re-analysis of the deposited data

Results flagged for a closer look

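Rpl10a changed unequally in the 2 kinds of RNA. Its change from heterozygous to homozygous knock-in was lower in CB RNA than in round spermatids by a log2 value of -1.44, which passed the test of the difference itself. The groups were separate in both: 32.9 and 37.5 against 160 and 143 CPM in spermatids, and 11.7 to 15.2 against 20.4 to 22.1 CPM in CB RNA. In spermatids 88.7% to 96.1% of its estimated TPM was assigned to a transcript that is listed at 0 in CB RNA. Whether that assignment bears on the difference was not tested.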

How the results depend on the processing

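The 7 results of single members that passed (Rpl10a in 3 tests, Rps3 in 3 and Rpl41 in 1) kept their direction in all 101 alternative fits and lost the threshold in 45, of which 35 left out 1 library. Members called in homozygous against wild-type spermatids numbered 2, and 5 with DESeq2, 24 without a filter (4 higher, 20 lower), 12 with the length trend removed, 0 with only the compared libraries (5 at an unadjusted p under 0.05) and 0 to 76 when leaving out 1 library; genes called were 510, and 1287, 1692, 2480, 15 and 0 to 8488. The 76 (70 of them lower) arose without wild-type library 2, with library 1 as the lone wild type. For homozygous against heterozygous spermatids, members were 2, and 6, 7, 7, 43 and 0 to 43, and genes 308, and 796, 912, 1752, 5577 and 0 to 5608. For heterozygous against wild type, members were 0, and 0 to 80 when leaving out 1 library, and genes 0, and 5 with DESeq2, 6 without a filter and 0 to 7901. For CB RNA, members were 2, and 4 without a filter and 0 to 4 when leaving out 1 library, and genes 332, and 598 with DESeq2, 882 without a filter and 51 to 2213. For the difference of changes, members were 1, and 2 without a filter and 0 to 5, and genes 46, and 144 with DESeq2, 191 without a filter, 93 with the length trend removed and 2 to 188. The median of members against wild type moved from -0.44 to 0.11 (homozygous) and from -0.53 to 0.07 (heterozygous) without wild-type library 1, to -0.77 and -0.89 without library 2, and to -0.04 and -0.10 with the length trend removed, which also moved the CB median from -0.07 to 0.05. RLE factors and sums with copies changed no call of a member.

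Replicate numbers did not pair the libraries: deviations of same-numbered libraries correlated at -0.13 (wild type and heterozygous), 0.11 and -0.02 in spermatids and at -0.01, -0.18 and -0.12 in CB RNA, where not every library correlated best with its own number. With the replicate block, members called were 1 (homozygous against wild type), 0 (against heterozygous), 0 (CB) and 0 (difference of changes), and genes 182, 12, 163 and 2. With the replicate block and the length trend removed, members were 11, 6 and 1 in the first 3 and genes 2033, 1260 and 150, and the medians against wild type were -0.04 and -0.09 and in CB RNA 0.05. The crossed pairing of wild-type and heterozygous libraries, added after seeing the data, called 5 genes and 0 members.

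With 2 libraries a group, 1 of which stood apart, small changes of members against wild type could not be told from library differences. Counts of members at under 1 CPM rest on few reads, and isoform and copy assignments are estimates.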
